A study of Mus musculus with 3 samples.

Results

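Axon guidance ligands and receptors were followed through 3 populations sorted from mouse embryonic stem cells after differentiation. They are the semaphorins of classes 3 to 7 with their plexin and neuropilin receptors, the ephrins with their Eph receptors, the Slits with their Robo receptors, and the netrins with Dcc and the Unc5 receptors. Members were taken by gene symbol alone from the protein-coding genes of the deposited table, which gave 70 rows of 39179. The symbol rule uses no values, but it was chosen with earlier results of these data known. The 70 rows carry 69 symbols, because Efna5 has 2 overlapping rows, and 36 rows are ligands and 34 receptors.

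The 3 populations came from 1 line of mouse embryonic stem cells with 2 reporters. One was an eGFP reporter of Cntn2 (contactin 2, an adhesion molecule known from Purkinje fibres of the heart), and the other a lentiviral mCherry driven by the promoter of the alpha myosin heavy chain gene Myh6. All cells were given sodium nitroprusside, a nitric oxide donor, at day 4 of differentiation and were sorted by fluorescence after 25 days. GFP is the population positive for Cntn2:eGFP with dim mCherry, MHC the population positive for mCherry, and NEG the population negative for both reporters. With 1 library for every population there is no replicate check and no p-value, and a difference between libraries cannot be told apart from a difference between populations.

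Axon guidance proteins were first described as cues that attract or repel growing nerve fibres, and the same proteins steer other migrating cells, vessels and sheets of cells. Secreted class 3 semaphorins bind neuropilins, which carry the binding site, and plexins, which signal inside the cell. Ephrins and Eph receptors both sit on cell surfaces and signal in both directions where cells touch, while Slits act through Robo receptors and netrins through Dcc, neogenin and Unc5 receptors. In the heart, semaphorin 3C with its receptors is known for outflow tract septation, Slit and Robo for the pericardium and the valves, and ephrin-B2 with EphB4 for the division of arteries from veins.

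Values are read counts divided by 1 size factor per library, as deposited, and whole reads recovered from them numbered 52109065 (GFP), 52826956 (MHC) and 47289405 (NEG). Cntn2, the gene of the eGFP reporter, peaked in GFP, at 10045 (GFP), 228 (MHC) and 204 (NEG). Myh6, whose promoter drives mCherry, peaked in MHC, at 4694 (GFP), 186924 (MHC) and 3843 (NEG). Myh6 in GFP was only 1.22-fold its value in NEG, although GFP is labelled as dimly positive for mCherry. Folds are ratios of these values, and their 95% intervals (Clopper-Pearson, on the recovered reads) cover counting error only. A gene is called higher or lower where log2(value + 1) differs by 2-fold or more and its larger value is at least 20; this grades size and tests nothing. In sorted bulk RNA, fewer cells of a type and less RNA per cell cannot be told apart.

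The libraries also differed in markers of whole cell types. These lists were chosen with earlier results of these data known, so their counts describe the libraries and support nothing further. Over all genes, 15.6% were higher and 16.4% lower in GFP than in MHC, and 14.1% and 15% against NEG. Epicardial and mesothelial markers were higher in GFP for 10 of 10 genes against MHC and against NEG, with a summed value of 178937 (GFP), 6889.8 (MHC) and 7028 (NEG). Bone and cartilage markers were lower in GFP for 7 of 7 in each comparison, at 9837 (GFP), 414897 (MHC) and 1275956 (NEG). Heart muscle markers summed to 8911 (GFP), 115739 (MHC) and 5469.7 (NEG), and the study describes the GFP cells as like Purkinje fibres. Of the 8 markers 7 were lower in GFP than in MHC, and against NEG 3 were higher in GFP (Myl2, Myl7 and Myh7) and 1 lower (Nkx2-5). Another gene overlaps Myh7 with 45.2% as many reads, so its values are uncertain. Smooth muscle and pericyte markers were lower in GFP for 7 of 7 genes in each comparison, with sums of 6214 (GFP), 66768 (MHC) and 91809 (NEG). Fibroblast and matrix markers were lower in GFP for 5 of 7 and higher for 2 of 7 against MHC, and against NEG 4 were lower and 2 higher. Their sums were 1326658 (GFP), 5245543 (MHC) and 5266196 (NEG). Blood markers were higher in GFP for 3 of 5 in each comparison, carried by Cd14, Cd68 and Csf1r, and Ptprc was at 10.1 (GFP), 4.05 (MHC) and 3.39 (NEG). Every difference of a guidance gene below runs beside these shifts of cell type markers, and their part in it was not tested. For neurons and vessels, the best-known sources of guidance genes, several defining markers were near 0 and others were not. Of 10 neuronal markers, Elavl3, Elavl4, Rbfox3, Nefl and Nefm had values of 16.2 or less in every library, Nefl had 0 reads in MHC and in NEG, and the list summed to 331 (GFP), 448 (MHC) and 711 (NEG), with the largest value from Tubb3 in NEG. Gm20388 overlaps Tubb3 with far more reads, so that value is uncertain. Of 10 endothelial markers, Cdh5, Tie1, Emcn and Cldn5 had values of 9.12 or less in every library, with 0 reads of Cldn5 in GFP and in MHC, and the list summed to 2016 (GFP), 1344 (MHC) and 1976 (NEG). Egfl7, Tek and Esam were higher in GFP than in MHC and Erg and Pecam1 lower, and against NEG 2 were higher and 3 lower. Erg was at 21.02 (GFP), 376 (MHC) and 831 (NEG), and Egfl7 at 1231 (GFP), 582 (MHC) and 569 (NEG). Gm20532 overlaps Egfl7 with 251% as many reads, so its values, and the sum that holds them, are uncertain. Glia and neural crest markers summed to 622 (GFP), 234 (MHC) and 454 (NEG), with 0 reads of Sox10 in MHC and of Foxd3 in GFP and MHC.

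Axon guidance genes were spread to both sides between GFP and MHC, with about as many ligands as receptors on each side. Of 64 rows that reached a value of 20, 18 were higher in GFP and 18 were lower, and 28 lay within 2-fold. The same rule called 15.6% of 20879 genes of the table higher and 16.4% lower (31.9% in all), against 28.1% of the guidance rows in each direction. Their median log2 ratio was 0.06 over the rows that passed and 0.06 over all 70, beside 0.012 over all genes tested. It was -0.33 without the 12 rows overlapped by another row with 25% or more as many reads. That limit compares total reads, and shared reads were not counted. The 12 include both Efna5 rows, which overlap each other. Among the higher rows 9 were ligands and 9 receptors, and among the lower rows also 9 and 9. A member can pass the minimum through the library where it is high alone, so these counts describe the members and support nothing further. Without those 12 overlapping rows, 11 of 53 were higher and 17 lower.

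Between GFP and NEG, 18 of 65 rows were higher in GFP and 22 lower, with 25 within 2-fold. Over all genes, 14.1% of 20814 were higher and 15% lower (29.1% in all), against 27.7% and 33.8% of the guidance rows. The rows' median log2 ratio was -0.06, or -0.35 over all 70, beside 0.017 over all genes. MHC and NEG were much closer to each other, with 5 of 65 rows higher in MHC and 9 lower (7.69% and 13.8%), beside 5.35% and 5.21% of 20572 genes (10.6% in all). Their median was -0.09 over the rows that passed, beside -0.015 over all genes. The 3 comparisons share libraries pairwise and are not independent of each other. Among protein-coding genes alone the shares higher and lower were 16.2% and 16.2% for GFP over MHC (32.5% in all), 15.1% and 14.2% for GFP over NEG (29.3%) and 5.39% and 4.89% for MHC over NEG (10.3%).

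**Figure D1:**
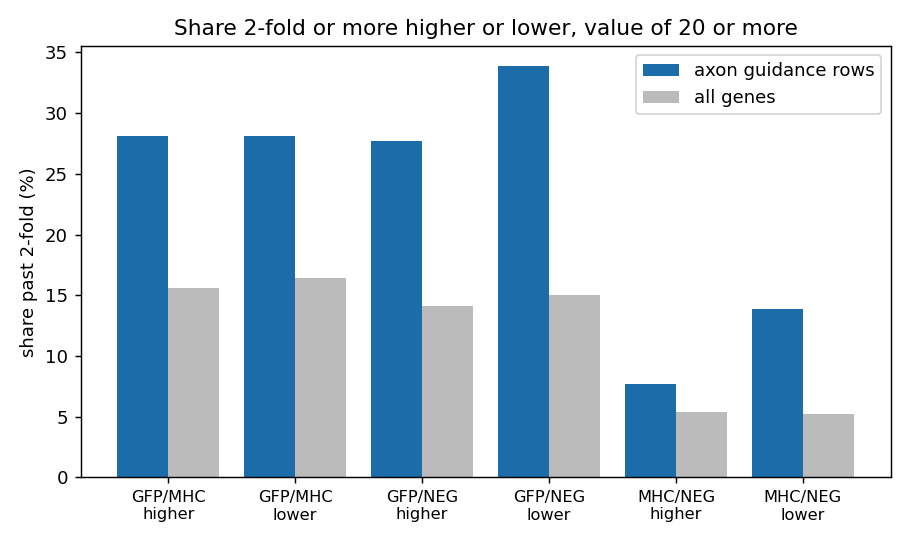
Share of rows 2-fold or more higher or lower in each comparison (vertical axis, percent), for axon guidance rows (blue) and all genes of the table (grey) whose larger value was at least 20. The guidance rows stand at 27.7% to 33.8% in the comparisons with GFP, against 14.1% to 16.4% of all genes.

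Among secreted semaphorins, Sema3c, Sema3f and Sema3e were higher in GFP than in the other populations. Sema3c, a ligand of neuropilins and plexin-A and plexin-D receptors (ENSMUSG00000028780, chr5:17574281-17730268, plus strand, mm10), had a value of 15768 (GFP), 553 (MHC) and 674 (NEG). That was 28.5-fold higher (95% interval 26.2 to 31.1) in GFP than in MHC and 23.4-fold higher (95% interval 21.5 to 25.4) than in NEG, whereas MHC and NEG lay close together. Sema3f (ENSMUSG00000034684, chr9:107681502-107710475, minus strand), the classical ligand of neuropilin 2, had 10978 (GFP), 2422 (MHC) and 1789 (NEG), 4.53-fold higher (95% interval 4.34 to 4.74) than in MHC and 6.14-fold higher (95% interval 5.82 to 6.47) than in NEG. Sema3e, which binds plexin D1 without needing a neuropilin, had 1564 (GFP), 417 (MHC) and 201 (NEG). It was highest in GFP and lowest in NEG, 3.75-fold higher (95% interval 3.36 to 4.18) in GFP than in MHC and 2.08-fold higher (95% interval 1.74 to 2.49) in MHC than in NEG.

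The remaining class 3 genes did not share this direction. Sema3b had 1019 (GFP), 2712 (MHC) and 2506 (NEG), 2.66-fold lower (95% interval 2.48 to 2.86) in GFP than in MHC and 2.46-fold lower (95% interval 2.29 to 2.64) than in NEG. Sema3d, known from cardiac neural crest and endothelial patterning, was read at a high and even level, with 6733 (GFP), 5767 (MHC) and 6094 (NEG). Sema3a, the prototype repellent of nerve fibres, had 161 (GFP), 282 (MHC) and 276 (NEG), within 2-fold in every pair. Sema3g, a semaphorin of vessel walls, was low at 12.8 (GFP), 12.2 (MHC) and 36.1 (NEG), and its lower values in GFP and MHC than in NEG rest on 14, 12 and 32 reads.

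Of 12 membrane-bound semaphorin rows that passed, 1 was higher and 5 lower in GFP than in MHC, beside 15.6% and 16.4% of all genes. Against NEG, 1 was higher and 6 lower, beside 14.1% and 15%. The exception was Sema4b (ENSMUSG00000030539, chr7:80186841-80226394, plus strand), with 4549 (GFP), 849 (MHC) and 1018 (NEG), 5.36-fold higher (95% interval 4.98 to 5.77) in GFP than in MHC. Sema4d, a ligand of plexin B1 that immune cells and osteoclasts are known to make, had 53.0 (GFP), 405 (MHC) and 1117 (NEG). GFP was thus the lowest library for Sema4d and NEG the highest, with GFP 21.1-fold lower (95% interval 16.2 to 28.0) than NEG and MHC 2.76-fold lower (95% interval 2.45 to 3.10) than NEG. Sema7a, the semaphorin with a lipid anchor, had 10.97 (GFP), 172 (MHC) and 183 (NEG), 15.7-fold lower (95% interval 8.76 to 31.0) in GFP than in MHC. Sema4g had 190.1 (GFP), 623 (MHC) and 791 (NEG), and Sema6c had 258 (GFP), 731 (MHC) and 739 (NEG). Each was lower in GFP, with MHC and NEG near each other. Sema6b, a ligand of class A plexins, was a low gene with 8.23 (GFP), 101 (MHC) and 22.6 (NEG), 4.48-fold higher (95% interval 2.75 to 7.65) in MHC than in NEG and 12.3-fold lower (95% interval 6.23 to 27.7) in GFP than in MHC. Sema6a had 122 (GFP), 191 (MHC) and 506 (NEG), so NEG stood above the other populations. Sema4c, Sema5a, Sema5b and Sema6d lay within 2-fold in every pair at values of 978 to 4619, and Sema5a was closest to the limit, 1.99-fold higher in GFP than in MHC. Sema5b is uncertain, because a predicted gene with almost as many reads overlaps it.

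The semaphorin receptors went apart, with class A plexins on both sides and both neuropilins lower in GFP. Plxna4 (ENSMUSG00000029765, chr6:32145926-32588192, minus strand), a signalling partner of neuropilins, had 21809.5 (GFP), 1834 (MHC) and 2212 (NEG), 11.9-fold higher (95% interval 11.3 to 12.5) in GFP than in MHC and 9.86-fold higher (95% interval 9.42 to 10.3) than in NEG. Plxna2, its paralog, was opposite, with 477 (GFP), 2252 (MHC) and 1517 (NEG), 4.72-fold lower (95% interval 4.29 to 5.20) in GFP than in MHC. Plxna1 had 12998 (GFP), 5652 (MHC) and 6769 (NEG), 2.3-fold higher (95% interval 2.23 to 2.37) in GFP than in MHC. It is uncertain, because a long non-coding gene with 59.2% as many reads overlaps it. Plxna3 had 448 (GFP), 625 (MHC) and 1187 (NEG) and was 2.65-fold lower (95% interval 2.38 to 2.96) in GFP than in NEG.

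Nrp1 (ENSMUSG00000025810, chr8:128359073-128505462, plus strand), the co-receptor of Sema3a and of vascular endothelial growth factor, had 934 (GFP), 9427 (MHC) and 6396 (NEG). GFP was far below the other libraries, 10.1-fold lower (95% interval 9.46 to 10.8) than MHC and 6.85-fold lower (95% interval 6.404 to 7.33) than NEG. Nrp2 (ENSMUSG00000025969, chr1:62703285-62818695, plus strand), the co-receptor of Sema3f, had 2484 (GFP), 5671 (MHC) and 7488 (NEG), 2.28-fold lower (95% interval 2.18 to 2.39) in GFP than in MHC and 3.01-fold lower (95% interval 2.88 to 3.15) than in NEG. The GFP library therefore combined the highest values of the ligand genes Sema3c and Sema3f with the lowest values of both neuropilin genes. Plxnb2, a receptor of class 4 semaphorins, had 31316 (GFP), 16371 (MHC) and 17461 (NEG), and Plxnd1, the receptor of Sema3e, had 1613 (GFP), 3033 (MHC) and 2510.1 (NEG). Both lay within 2-fold in every pair, as did Plxnb1 and Plxnc1, and Plxnb3 stayed under 20 in every library.

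**Figure D2:**
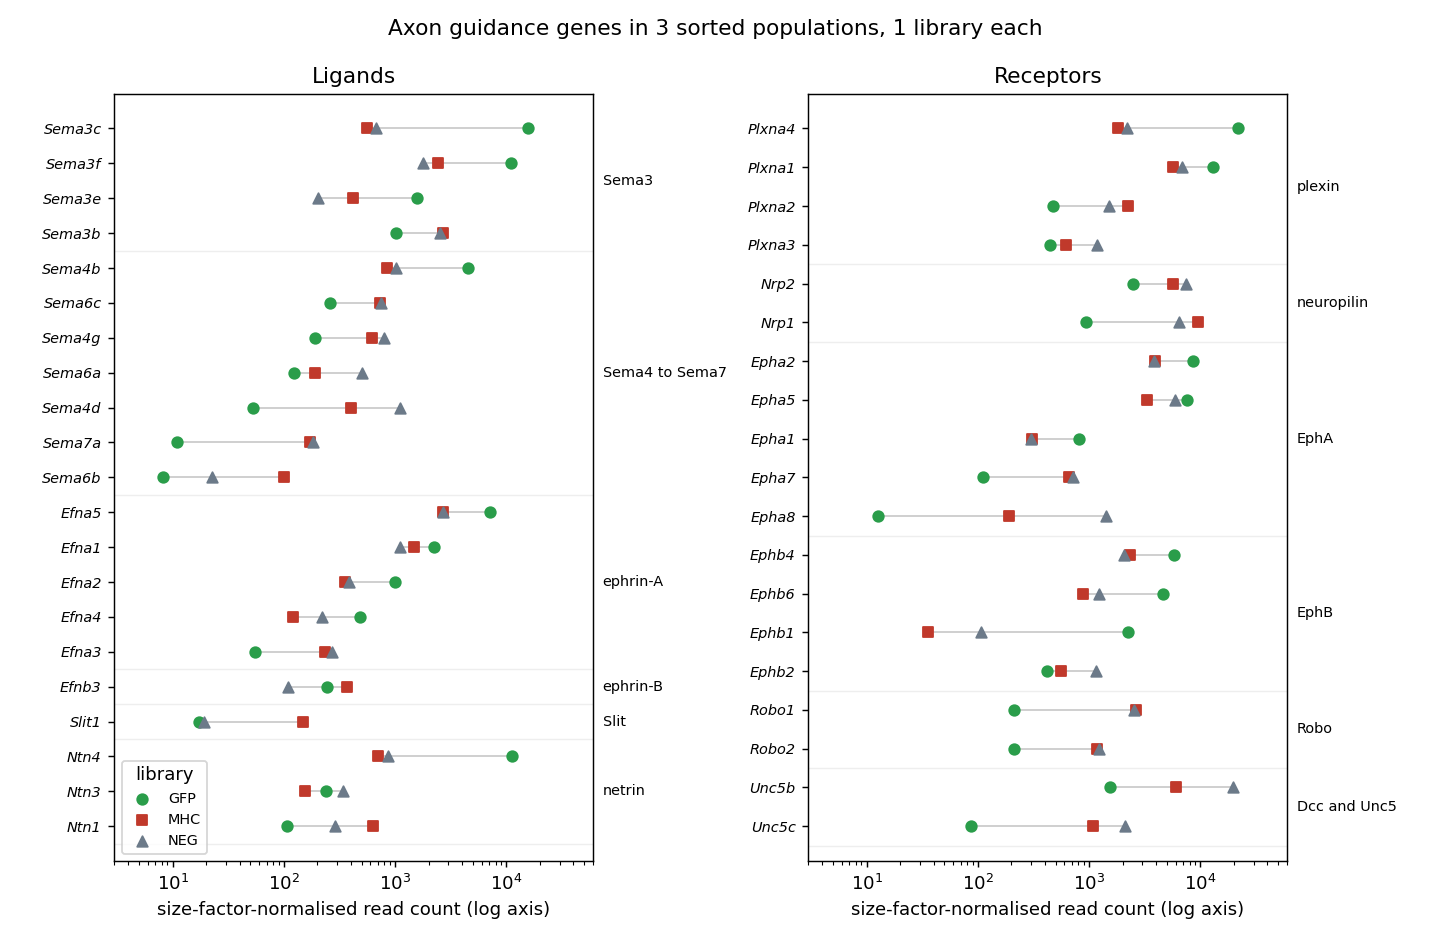
Size-factor-normalised read counts (horizontal axis, log scale) of the 40 guidance genes that reached a value of 100 in at least 1 library and differed 2-fold or more in at least 1 pair, ligands left and receptors right, 1 library per population (GFP circles, MHC squares, NEG triangles; the shorter Efna5 row is left out). For Sema3c, Ntn4, Plxna4 and Ephb1 the circle stands far right of the other symbols, and for Nrp1, Robo1, Robo2 and Unc5c far left, while the squares and triangles mostly lie close together.

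Of 4 netrin rows, 1 was higher and 1 lower in GFP than in MHC, and of 5 rows of Dcc and Unc5 genes 1 was higher and 2 lower, beside 15.6% and 16.4% of all genes. Ntn4 (ENSMUSG00000020019, chr10:93640681-93747207, plus strand), a netrin of basement membranes that binds laminin, had 11115 (GFP), 703 (MHC) and 863 (NEG), 15.8-fold higher (95% interval 14.6 to 17.1) in GFP than in MHC and 12.9-fold higher (95% interval 11.97 to 13.9) than in NEG. Ntn1, the classical netrin, had 107 (GFP), 632 (MHC) and 286 (NEG). It was highest in MHC, 2.21-fold higher (95% interval 1.91 to 2.57) than in NEG, and lowest in GFP, 5.91-fold lower (95% interval 4.84 to 7.26) than in MHC. Ntn3 had 241 (GFP), 155 (MHC) and 340.0 (NEG) but is uncertain, because Tbc1d24 overlaps it with several times as many reads. Ntn5, within 2-fold at 28.3 (GFP), 23.3 (MHC) and 26.0 (NEG), is uncertain because Sec1 overlaps it with more reads than its own.

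Unc5b (ENSMUSG00000020099, chr10:60762610-60831581, minus strand), a netrin receptor best known from vessels, followed the order NEG, MHC, GFP from high to low, with 1537 (GFP), 6023 (MHC) and 19676 (NEG). It was 3.92-fold lower (95% interval 3.71 to 4.14) in GFP than in MHC, 12.8-fold lower (95% interval 12.2 to 13.5) in GFP than in NEG and 3.27-fold lower (95% interval 3.17 to 3.37) in MHC than in NEG. Unc5c, a repulsive netrin receptor of neurons, showed the same order at lower values, with 86.8 (GFP), 1084 (MHC) and 2089.8 (NEG), and was 12.5-fold lower (95% interval 10.1 to 15.6) in GFP than in MHC. Unc5a was low, at 57.6 (GFP), 8.10 (MHC) and 7.91 (NEG), and is uncertain because Hk3 overlaps it with 52.6% as many reads. Dcc, the attractive netrin receptor, had 43.9 (GFP), 36.5 (MHC) and 37.3 (NEG), and Unc5d had 23.8 (GFP), 23.3 (MHC) and 24.9 (NEG), and both lay within 2-fold in every pair. Over their long gene spans these levels are 0.0334 to 0.0402 normalised reads per kilobase for Dcc and 0.0407 to 0.0434 for Unc5d. Neo1, a netrin receptor related to Dcc that is not among the 70 rows, had 12513 (GFP), 15464 (MHC) and 17988 (NEG) and lay within 2-fold.

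Among Slit and Robo genes, the ligand with most reads was within 2-fold while Robo1 and Robo2 were lower in GFP. Slit3 (ENSMUSG00000056427, chr11:35121224-35708507, plus strand) had the most reads of the 3 Slit genes, with 30913 (GFP), 25565 (MHC) and 17620.2 (NEG). It was 1.21-fold (95% interval 1.19 to 1.23) as high in GFP as in MHC and 1.75-fold (95% interval 1.72 to 1.79) as high as in NEG, within the 2-fold limit. Slit2 had 2464 (GFP), 1333 (MHC) and 1417 (NEG), also within 2-fold, and Slit1 stood out in MHC alone, with 17.4 (GFP), 148 (MHC) and 19.2 (NEG), 7.70-fold higher (95% interval 4.65 to 13.6) in MHC than in NEG. Robo1 (ENSMUSG00000022883, chr16:72663149-73046095, plus strand), a Slit receptor, had 212 (GFP), 2661 (MHC) and 2513 (NEG). It was 12.5-fold lower (95% interval 10.97 to 14.4) in GFP than in MHC and 11.9-fold lower (95% interval 10.3 to 13.6) than in NEG, while MHC and NEG were almost equal. Robo2 (ENSMUSG00000052516, chr16:73892306-74411825, minus strand) had 210.2 (GFP), 1166 (MHC) and 1220.0 (NEG), 5.55-fold lower (95% interval 4.81 to 6.42) in GFP than in MHC. Robo3, a receptor of commissural neurons, had 13.7 (GFP), 13.2 (MHC) and 33.9 (NEG) and Robo4, the Robo of endothelial cells, 3.66 (GFP), 1.01 (MHC) and 6.78 (NEG). Robo4 is under the minimum in every library and Robo3 in GFP and MHC.

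Of 6 ephrin-A rows, 4 were higher and 1 lower in GFP than in MHC, beside 15.6% and 16.4% of all genes, and 5 were higher and 1 lower than in NEG, beside 14.1% and 15%. These counts hold Efna5 in 2 rows, for each of which the other is the largest overlap. They also hold Efna3 and Efna4, which other genes overlap, while Efna1 and Efna2 had no overlapping gene. Efna5 (ENSMUSG00000048915, chr17:62604184-62881317, minus strand) had 7178 (GFP), 2713 (MHC) and 2689.7 (NEG), 2.65-fold higher (95% interval 2.53 to 2.77) in GFP than in MHC and 2.67-fold higher (95% interval 2.55 to 2.80) than in NEG. Its shorter row, a stretch of 2416 bases inside the longer one, had 4632 (GFP), 1699.7 (MHC) and 1889.9 (NEG) and adds no independent measurement. Efna2 had 999 (GFP), 355 (MHC) and 384 (NEG), 2.82-fold higher (95% interval 2.50 to 3.19) in GFP than in MHC. Efna1 had 2244 (GFP), 1491 (MHC) and 1096 (NEG), 2.05-fold higher (95% interval 1.90 to 2.21) in GFP than in NEG and within 2-fold of MHC. Efna4 (higher in GFP) and Efna3 (lower in GFP) are uncertain, because other genes overlap them with 1483% and 51.5% as many reads. Efna4 had 479 (GFP), 121 (MHC) and 221 (NEG), and Efna3 had 54.8 (GFP), 235 (MHC) and 269 (NEG). Efnb1 and Efnb2, ligands of the EphB receptors, lay within 2-fold in every pair. Efnb1 had 3335 (GFP), 3112 (MHC) and 4334 (NEG) and Efnb2 1965 (GFP), 2467 (MHC) and 1758 (NEG). Efnb3, an ephrin of the nervous system, was lowest in NEG, with 245 (GFP), 369 (MHC) and 109.6 (NEG), 3.36-fold higher (95% interval 2.68 to 4.25) in MHC than in NEG.

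EphB receptor genes were higher in GFP for 3 of 5 genes against MHC and against NEG, beside 15.6% and 14.1% of all genes, and Ephb1 had the largest ratio of GFP over MHC among the 70 rows. Ephb1 (ENSMUSG00000032537, chr9:101922128-102354693, minus strand) had 2216 (GFP), 35.5 (MHC) and 107 (NEG), 62.5-fold higher (95% interval 44.8 to 89.9) in GFP than in MHC and 20.6-fold higher (95% interval 16.8 to 25.6) than in NEG. It was also 3.03-fold lower (95% interval 2.03 to 4.60) in MHC than in NEG, on 35 reads in MHC and 95 in NEG. Ephb6 (ENSMUSG00000029869, chr6:41605482-41620509, plus strand), the EphB receptor without kinase activity, had 4598 (GFP), 882 (MHC) and 1239 (NEG), 5.21-fold higher (95% interval 4.85 to 5.61) in GFP than in MHC. Ephb4 (ENSMUSG00000029710, chr5:137350109-137378669, plus strand), the receptor of ephrin-B2 known from veins, had 5768 (GFP), 2333 (MHC) and 2075 (NEG), 2.47-fold higher (95% interval 2.36 to 2.59) in GFP than in MHC. Ephb3 was even, with 3241 (GFP), 2019 (MHC) and 2032 (NEG), and Ephb2 was highest in NEG, with 419 (GFP), 563 (MHC) and 1141 (NEG), 2.73-fold lower (95% interval 2.44 to 3.05) in GFP than in NEG.

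EphA receptor genes went both ways. Epha2, the EphA receptor of epithelia, had 8498 (GFP), 3906 (MHC) and 3863 (NEG), 2.18-fold higher (95% interval 2.10 to 2.26) in GFP than in MHC and just past the 2-fold limit. Epha8 (ENSMUSG00000028661, chr4:136929419-136956816, minus strand) had 12.8 (GFP), 191 (MHC) and 1409.8 (NEG), lowest in GFP and highest in NEG. It was 110.2-fold lower (95% interval 65.4 to 202) in GFP than in NEG, the lowest ratio of any row in that comparison, and 7.36-fold lower (95% interval 6.31 to 8.63) in MHC than in NEG. Epha7 had 112 (GFP), 659 (MHC) and 716 (NEG), 5.91-fold lower (95% interval 4.87 to 7.23) in GFP than in MHC, and did not separate MHC from NEG. Epha1 and Epha5 were higher in GFP than in MHC but are overlapped by Zyx and by a pseudogene and are uncertain, at 806 (GFP), 304 (MHC) and 299 (NEG) for Epha1 and 7508 (GFP), 3320.3 (MHC) and 5892 (NEG) for Epha5. Epha3 had 373 (GFP), 495 (MHC) and 465 (NEG) and Epha4 842 (GFP), 1175 (MHC) and 1160.1 (NEG), each within 2-fold, Epha6 was even at 41.1 (GFP), 46.6 (MHC) and 41.8 (NEG), and Epha10 was under the minimum.

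**Figure D3:**
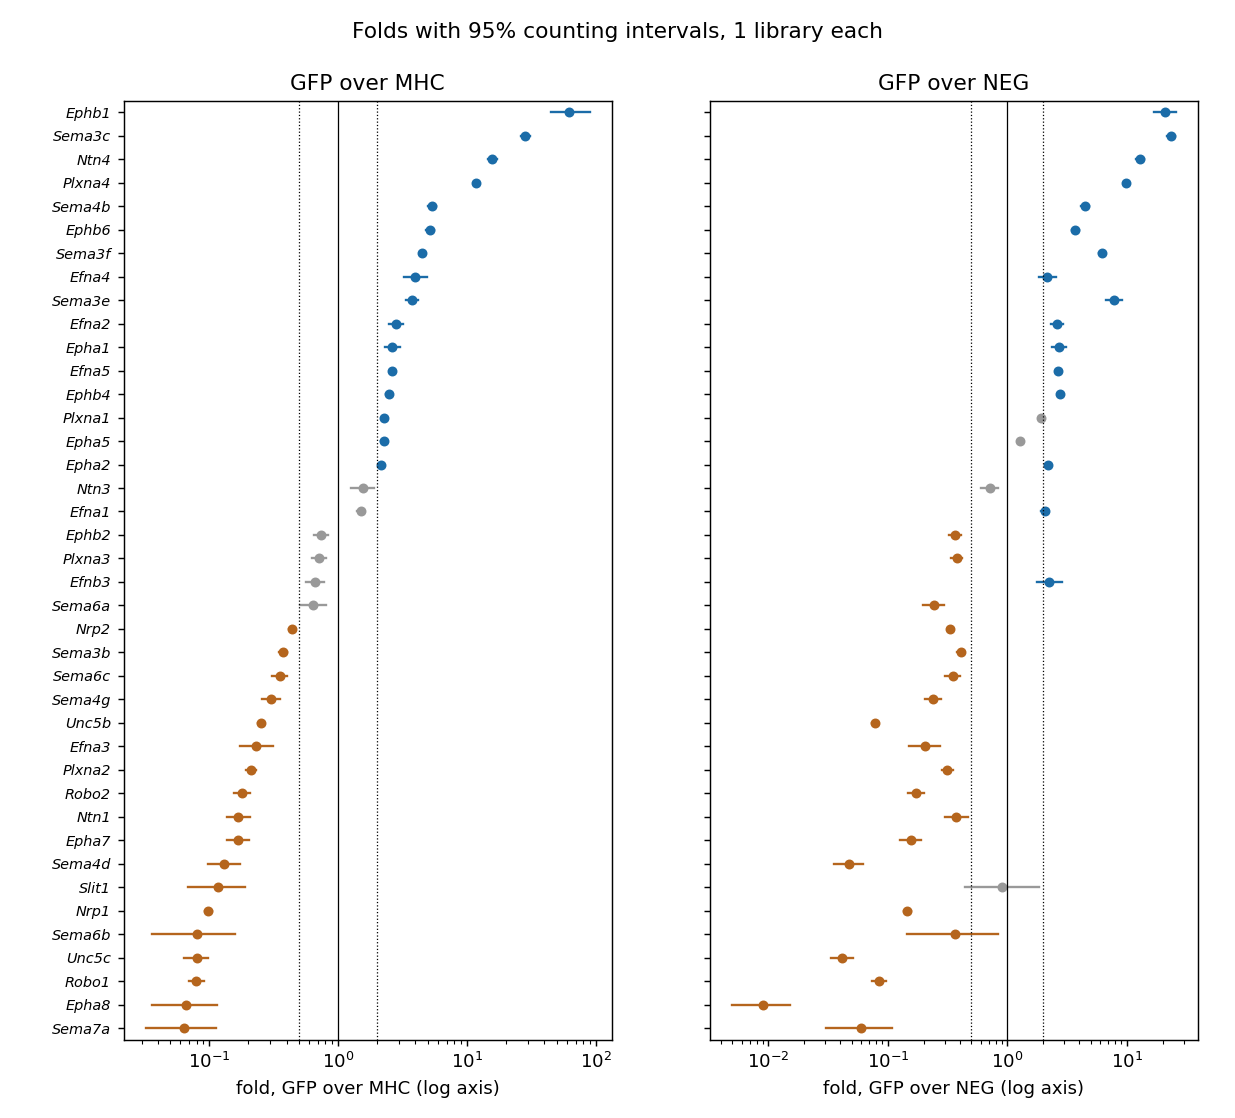
Fold of GFP over MHC (left) and of GFP over NEG (right) for the same 40 genes (horizontal axes, log scale), with bars for 95% counting intervals, a solid line at equality and dotted lines at 2-fold. Blue marks genes called higher in GFP, brown genes called lower and grey the rest. Genes run from Ephb1 at 62.5-fold over MHC down to Sema7a, and both panels draw on the same GFP library.

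Sequence upstream of the gene start is shown for the members at either end of the GFP over MHC ratio, Ephb1 and Sema3e from the higher end and Robo1 and Epha8 from the lower end. They are the 2 highest and 2 lowest of the members not called uncertain for overlap whose RefSeq start is also the start of the deposited gene row. The starts were the same for 32 of the 59 members that RefSeq windows matched. Each line gives the 250 bases before the start on the gene's strand (RefSeq, GRCm38.p6), at chr9:102354694-102354943 for Ephb1, chr5:14025026-14025275 for Sema3e, chr16:72662899-72663148 for Robo1 and chr4:136956817-136957066 for Epha8. Capitals mark GC boxes, GGGCGG on either strand.
Ephb1: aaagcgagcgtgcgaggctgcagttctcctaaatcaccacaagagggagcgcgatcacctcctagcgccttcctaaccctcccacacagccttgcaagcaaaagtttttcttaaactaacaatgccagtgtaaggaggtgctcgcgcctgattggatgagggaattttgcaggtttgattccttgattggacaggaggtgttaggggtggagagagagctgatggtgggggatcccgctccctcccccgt
Sema3e: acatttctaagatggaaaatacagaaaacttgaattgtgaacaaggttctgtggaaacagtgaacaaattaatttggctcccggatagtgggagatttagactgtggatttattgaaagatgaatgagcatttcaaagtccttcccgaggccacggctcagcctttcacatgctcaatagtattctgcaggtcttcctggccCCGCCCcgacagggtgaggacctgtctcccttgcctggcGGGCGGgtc
Robo1: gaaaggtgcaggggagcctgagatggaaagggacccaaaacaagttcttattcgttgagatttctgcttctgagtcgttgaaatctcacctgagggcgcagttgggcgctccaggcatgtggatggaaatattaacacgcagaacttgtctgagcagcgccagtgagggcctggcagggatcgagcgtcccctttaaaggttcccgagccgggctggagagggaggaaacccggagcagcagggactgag
Epha8: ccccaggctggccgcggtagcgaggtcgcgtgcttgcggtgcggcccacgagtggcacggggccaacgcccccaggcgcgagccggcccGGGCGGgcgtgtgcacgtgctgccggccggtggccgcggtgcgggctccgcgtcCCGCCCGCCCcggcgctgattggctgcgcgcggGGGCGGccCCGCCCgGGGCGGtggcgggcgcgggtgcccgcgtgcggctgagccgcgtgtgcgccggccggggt
The window of Epha8 holds 6 GC boxes and that of Sema3e 2, while those of Ephb1 and Robo1 hold none, so GC boxes stand on both sides of the comparison. GC content was 54% for Ephb1, 48% for Sema3e, 56% for Robo1 and 84% for Epha8. Over 75 windows of the matched members, each the same 250 bases before a start, 70.7% held a GC box, against 32.7% of 32851 windows in all. Unlike the members, those 32851 windows were taken without a filter for protein-coding genes. The share was 86.7% of 15 windows from 14 genes higher in GFP than in MHC and 65.2% of 23 windows from 15 genes lower. Genes with several starts count more than once, so these are not shares of genes. The median window of the members had a GC content of 64.4% and 15 CpG dinucleotides, against 52.4% and 6 over all windows. The TATA motif TATAAA stood in 2.67% of member windows and 12.4% of all, the GATA motif AGATAA in 4% and 9.99%, the E-box CAGCTG in 16% and 13%, and the TEAD motif GGAATG in 10.7% and 12.6%, each on either strand, and no motif contains another. By direction, the E-box stood in 0 of 15 windows of genes higher in GFP and 5 of 23 of genes lower, TEAD in 2 and 0, GATA in 1 and 1, and TATA in 0 and 0. A match is a description of letters and not a binding site.

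Levels were next compared between members of 1 family, as normalised reads per kilobase of merged exons, to show which member supplied most of each family. Counts include reads in introns, which can overstate genes with long introns on this scale, and an order is given as firm only where it also holds per kilobase of gene span. Plxnb2 was the leading plexin on both scales in every library, at 4056 (GFP), 2121 (MHC) and 2262 (NEG) per kilobase of exons. Plxna4 supplied 20.4% of the plexin level in GFP, 3.50% in MHC and 3.82% in NEG, but its share in GFP was 1.97% per kilobase of span. Over the 9 plexins the summed level was 7578 (GFP), 3711 (MHC) and 4103 (NEG), and over the 2 neuropilins 305 (GFP), 1442 (MHC) and 1286 (NEG). GFP had the highest plexin sum and the lowest neuropilin sum of the 3 libraries.

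The other families were each led by few genes. Epha2 led the EphA genes on both scales, with 68.8% of their level in GFP, 58.4% in MHC and 45.1% in NEG. Slit3 held 98.1% of the Slit level in GFP, 98.2% in MHC and 98.0% in NEG. Per kilobase of span its shares were 87.2% (GFP), 89.4% (MHC) and 86.9% (NEG). The summed Robo level was 27.9 (GFP), 232 (MHC) and 230.3 (NEG) per kilobase of exons. Unc5b led the Dcc and Unc5 genes with 91.01% of their level in GFP, 93.8% in MHC and 96.4% in NEG. Summed over these receptors the level was 269.8 (GFP), 1026 (MHC) and 3261 (NEG). Ntn4 held 99.0% of the level of Ntn1, Ntn4 and the uncertain Ntn5 in GFP, 62.8% in MHC and 80.1% in NEG. Ntn3, also uncertain, had no exon length and was left out. Per kilobase of span Ntn3 had 43.6 (GFP), 28.0 (MHC) and 61.4 (NEG), against 104 (GFP), 6.60 (MHC) and 8.10 (NEG) for Ntn4. On that scale Ntn3 was thus above Ntn4 in MHC and NEG. Secreted semaphorins summed to 5500.3 (GFP), 1850.0 (MHC) and 1722 (NEG). Sema3c and Sema3f led them in GFP, in an order that turned with the length used, while in MHC and NEG Sema3d led per kilobase of exons and Sema3b per kilobase of span.

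**Figure D4:**
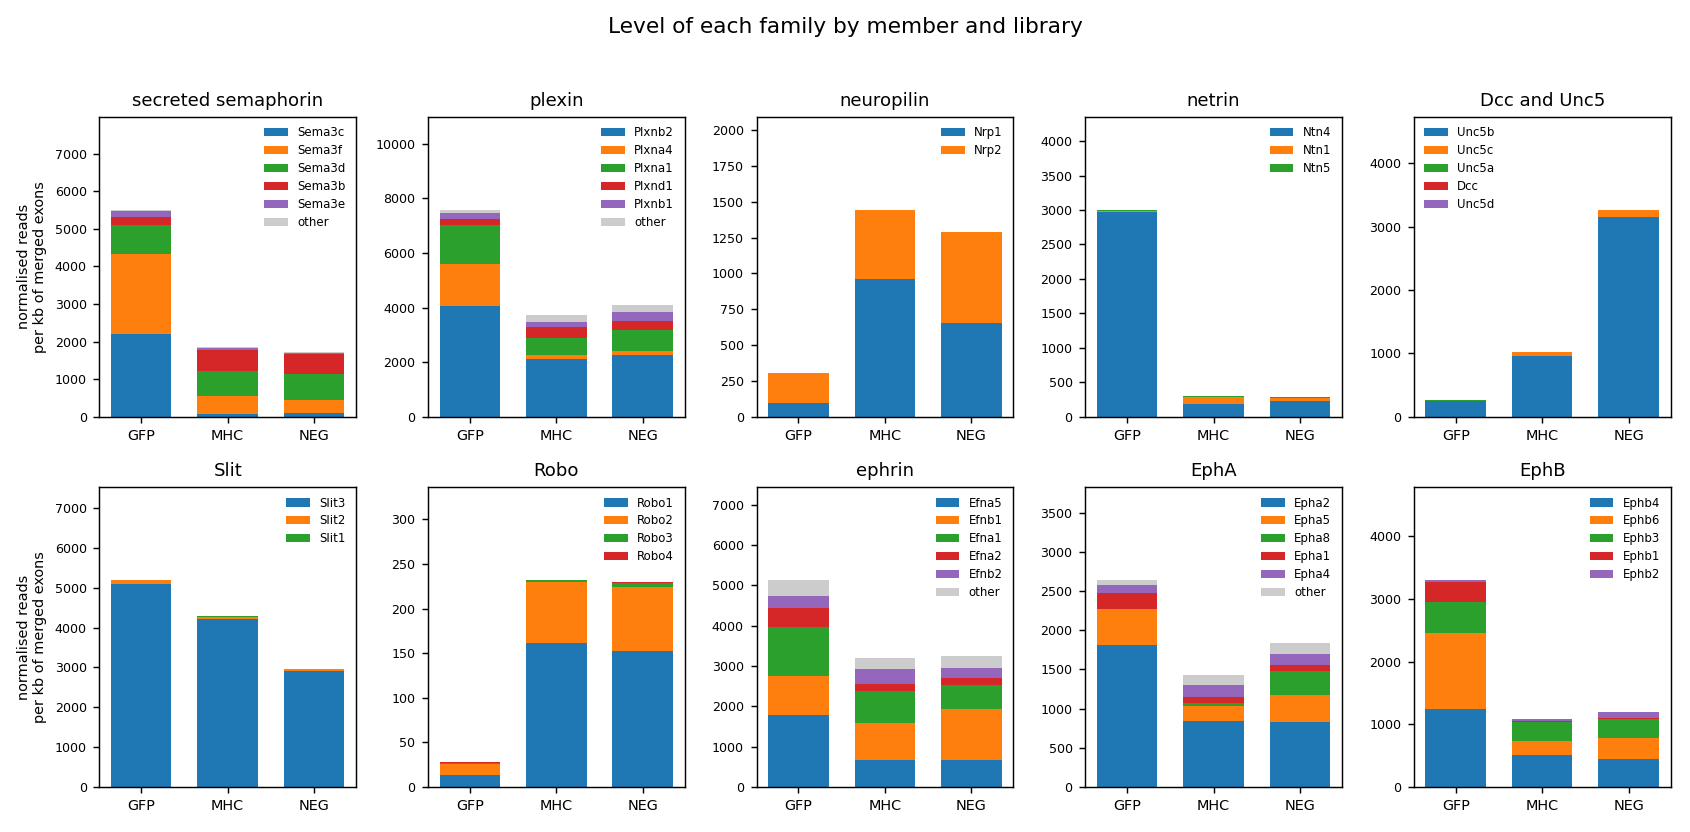
Stacked bars of normalised reads per kilobase of merged exons (vertical axes, 1 scale per panel) for 10 guidance families in GFP, MHC and NEG, coloured by member with the 5 leading members named. Secreted semaphorins, plexins, netrins and EphB receptors reach further in GFP, and neuropilins, Robo and the Dcc and Unc5 receptors in MHC and NEG. Ntn3 and the shorter Efna5 row, without an exon length, are left out.

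The members without values so far differed little or were low. Plxnb1, a receptor of Sema4d, had 2131 (GFP), 1874 (MHC) and 3239.8 (NEG), and Plxnc1, the receptor of Sema7a, had 95.98 (GFP), 111 (MHC) and 125 (NEG). Sema4a was low, with 37.5 (GFP), 50.6 (MHC) and 54.2 (NEG). Of 58 rows with a value of 100 or more in at least 1 library, 17 lay within 2-fold in every pair. Another 8 rows peaked between 20 and 100, and 3 of these, Unc5a, Robo3 and Sema3g, differed 2-fold in at least 1 pair. The share of all genes that differed in any pair at these limits was not computed, so these counts only describe the members. The 4 rows under 20 throughout were Epha10, Plxnb3, Robo4 and Sema4f. Epha10 had 8.23 (GFP), 5.06 (MHC) and 11.3 (NEG), Plxnb3 4.57 (GFP), 13.2 (MHC) and 6.78 (NEG) and Sema4f 4.57 (GFP), 11.1 (MHC) and 12.4 (NEG). Every row had at least 1 read in every library. The rows nearest the 2-fold limit were Epha2, called higher, and Sema5a, not called, for GFP over MHC. They were Efna1, called, and Plxna1, not called, for GFP over NEG, and Ephb2, called, and Unc5c, not called, for MHC over NEG. Summed without the shorter Efna5 row, the members held 0.471% (GFP), 0.257% (MHC) and 0.286% (NEG) of all reads.

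Other genes of the guidance pathways, from a list of co-receptors, sheddases and intracellular effectors of which 76 of 77 entries were found, were compared in the same way. Of 75 that passed, 13 were higher and 11 lower in GFP than in MHC (17.3% and 14.7%, median log2 ratio 0.32), close to the 15.6% and 16.4% of all genes. Of 74, 16 were higher and 14 lower in GFP than in NEG (21.6% and 18.9%, median 0.23), beside 14.1% and 15% of all genes. Between MHC and NEG 1 of 73 was higher and 2 were lower (1.37% and 2.74%, median -0.13), beside 5.35% and 5.21%. Met, the receptor of hepatocyte growth factor that also pairs with plexins of class B, had 10851 (GFP), 335 (MHC) and 442 (NEG), 32.4-fold higher (95% interval 29.0 to 36.2) in GFP than in MHC. Flrt2, a membrane protein that binds Unc5 receptors as a repellent ligand, had 44759 (GFP), 2032 (MHC) and 2231 (NEG), 22.0-fold higher (95% interval 21.1 to 23.0) in GFP than in MHC. Dpysl5, a cytoplasmic protein of the collapsin response family that acts downstream of semaphorins, had 5544 (GFP), 249.2 (MHC) and 347 (NEG). All of these were highest in GFP.

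Gpc1, Sdc3, Pak1 and Nrcam stood at the other end. Gpc1, a glypican that binds Slit, had 697 (GFP), 22785 (MHC) and 44790.5 (NEG), 32.7-fold lower (95% interval 30.4 to 35.2) in GFP than in MHC. Sdc3, a syndecan, had 518 (GFP), 14608 (MHC) and 23306 (NEG) and is overlapped by a gene with 49.2% as many reads. The other syndecans of the list, Sdc1, Sdc2 and Sdc4, lay within 2-fold in every pair. The kinase gene Pak1, an effector of Rac and Cdc42, had 289.8 (GFP), 2174 (MHC) and 1667 (NEG), and the adhesion gene Nrcam, a partner of neuropilins, had 20.1 (GFP), 132 (MHC) and 244 (NEG). Tubb3, Srgap1 and Ngef were lowest in MHC over NEG. Tubb3, a tubulin of neurons, had 77.7 (GFP), 43.6 (MHC) and 368 (NEG) and is uncertain, because Gm20388 overlaps it with far more reads. Srgap1, a Slit and Robo effector, had 196 (GFP), 537 (MHC) and 1225 (NEG). Ngef, an exchange factor of EphA receptors, had 734 (GFP), 868 (MHC) and 1719 (NEG). It is uncertain, because Neu2 overlaps it with 52.2% as many reads. Dpysl2, Rnd1 and Eva1c were highest in MHC over NEG, and only Dpysl2 passed 2-fold there, with 999.98 (GFP), 1432 (MHC) and 709 (NEG). Rnd1, a GTPase that binds plexins, had 1507 (GFP), 1136 (MHC) and 592 (NEG), and Eva1c, a membrane protein that binds Slit, 366 (GFP), 228 (MHC) and 127 (NEG).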

How the data were processed

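RNA of 3 sorted populations with 1 library each was measured with TruSeq RNA libraries sequenced as single reads of 50 bases, per the labels' protocols. The submitters' processing notes name the build mm10 and, without roles, DESeq2 1.2.10, bedtools 2.17.0, the aligner STAR 2.3.0e and FastQC 0.11.2. The deposited values are signal, counts that the authors scaled with 1 size factor in each library. Whole multiples of 1 read (0.914 in GFP, 1.01 in MHC, 1.13 in NEG) gave 100% of values within 0.01, and reads were recovered by that step. Genes with 300 or more reads inside an intron of a host gave 1015 pairs of gene and host, 577 of them on opposite strands. The host had at least as many reads in 100% of pairs, so counts cover the gene span on either strand. Genes overlapped by another row with 25% or more as many reads in total are called uncertain, and reads held in common were not counted. Of the table's IDs, 96.2% were found in GENCODE M21, the source of exon lengths and strands. For list entries with several rows the row with the most reads was used.

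With no residual degrees of freedom among samples no count test could be fitted to the recovered reads, so there is no count of genes from one and no p-value. The intervals and the 2-fold rule were checked on reads simulated with counting error only, which the intervals assume. That checks the arithmetic and says nothing of variation between samples. Python 3.11.15, numpy 2.4.6, scipy 1.17.1, pandas 2.3.3, R 4.3.3 and edgeR 4.0.16 (TMM factors only) were used. Guidance genes were named with values where they reached 100 in 1 library and differed 2-fold in a pair; others outside this rule are given by choice after their values were seen. The members and lists were chosen with earlier results of these data known. Alternatives were the pseudocount, the minimum value, the scaling, the fold, overlapping genes and, chosen after seeing the data, the shorter Efna5 row.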

Additional observations from a re-analysis of the deposited data

How the results depend on the processing

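Counts of members called stayed within 1.5 times of the reported ones with a pseudocount of 10 or 0.5, no minimum, a minimum of 100, TMM or library-total scaling and without the shorter Efna5 row. At 3-fold, 25 rows differed between GFP and MHC (10 higher, 15 lower), 23 between GFP and NEG (9 and 14) and 5 between MHC and NEG (3 and 2), since the limit is stricter, and 18.6%, 17.4% and 4.2% of all genes did. Without overlapping genes 28 rows differed between GFP and MHC (11 higher, 17 lower), from 53 rows in place of 64. Library-total scaling shifted the median log2 ratio of all genes by 0.168 for GFP over MHC and 0.165 for GFP over NEG, and moved 39 of 123 named ratios beyond their counting interval. The log2 ratio of Slit1 for GFP over NEG, with values under 20 in each, changed sign there (0.02 against -0.14); no other named ratio changed sign under TMM or library-total scaling or a pseudocount of 10. The leading member of a family per kilobase of exons also led per kilobase of span in 21 of 33 cases, because introns lengthen the span unequally. Ntn3, without an exon length, was left out of these cases. The small medians changed sign in some settings, to -0.057 for GFP over MHC with a minimum of 100 and to -0.33 without overlapping genes, and to 0.097 for GFP over NEG under library-total scaling. No paired analysis was possible because each population has 1 library, so nothing could be left out either. Values under about 20 rest on few reads, and depth limits what Robo4, Plxnb3, Epha10 and Sema4f can show.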
